A study of Mus musculus with 8 samples.

Results

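The 10 transcription factor genes that set the fate of activated CD8 T cells described here were measured in mouse OT-I CD8+ T cells exposed to the synthetic liver X receptor (LXR) agonist RGX-104. They were chosen by symbol: Tbx21, Eomes, Prdm1, Id2, Id3, Zeb2, Tcf7, Irf4, Irf8 and Batf. All 10 were found among the 41730 rows of the deposited count table, and all 10 passed the filter on low counts that left 13290 genes for testing. OT-I cells have a transgenic antigen receptor that recognises SIINFEKL, a fragment of ovalbumin. In every sample they were cultured with LXR-/- BMDCs, dendritic cells grown from bone marrow without LXR and loaded with SIINFEKL, and were then sorted by flow cytometry. The dendritic cells of both groups thus lacked the receptor, while the genotype given for the T cells, OT-I, names no LXR mutation. The RGX-104 group (4 libraries) received 2 uM of the agonist and the control group (4 libraries) received the solvent DMSO. The labels give no age or sex, and they leave unsaid whether libraries of a group stem from different mice or cultures. The p-values therefore cover the spread among these 8 libraries alone, which may be technical.

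After antigen contact, a CD8 T cell becomes either a short-lived effector cell or a longer-lived memory precursor, and the balance of a small set of transcription factors accompanies that choice. T-bet (Tbx21), Blimp-1 (Prdm1), Zeb2 and Id2 are known for effector differentiation, whereas TCF-1 (Tcf7), Id3 and Eomes are known for memory or less differentiated cells. IRF4 and BATF are induced by the T cell receptor and act together at shared DNA sites, and IRF8 is a related factor that activated CD8 T cells also use.

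Library totals were 30642316 to 35244624 counts with RGX-104 and 33942140 to 37714355 counts in controls (two-sided exact permutation p = 0.0857, n = 4 each). The RGX-104 libraries are numbered here by the table's columns, since the labels do not say which sample each column is. RGX-104 libraries 2 and 3 lay closest to each other (chi-square per degree of freedom 1.36), followed by RGX-104 libraries 1 and 4 (2.33), against 2.54 to 6.77 for the other pairs within a group. Abca1, the gene of a cholesterol efflux transporter and a known LXR target, averaged 125 ± 6.21 CPM with RGX-104 and 1.72 ± 0.295 CPM in controls (SD, n = 4 each). Cd8a averaged 809 and 877 CPM in RGX-104 and control libraries, and Cd4 had at most 14 and 10 counts in any library of these groups.

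Of the 10 factors, 3 fell with RGX-104, namely Tbx21, Prdm1 and Irf8, and 0 rose in the unpaired fit. With libraries paired by their column number, a pairing inferred from these data that the labels do not state, the same 3 fell and Eomes rose. Prdm1 fell by 22.4%, Irf8 fell by 18.5% and Tbx21 fell by 16.9%, and in each of these genes every RGX-104 library lay below every control library. Among all 13290 tested genes, 4.82% were called higher, 4.13% lower and 8.95% in either direction. Calls are by edgeR's quasi-likelihood test at Benjamini-Hochberg adjusted p under 0.05. Among the 8948 genes at or above the level of Zeb2, the lowest member, 5.22% were called lower. With the libraries paired, 8.34% of all tested genes were called higher and 6.82% lower. In 14.5% of tested genes the groups did not overlap. The factors and the gene lists below were chosen with earlier results of these data known. Setting their counts beside these shares is therefore no test. The median log2 change of the 10 factors was -0.05, beside 0.00072 over all tested genes. In bulk RNA a lower count can mean fewer cells that express a gene or less RNA per cell, and these cannot be told apart here.

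**Figure D1:**
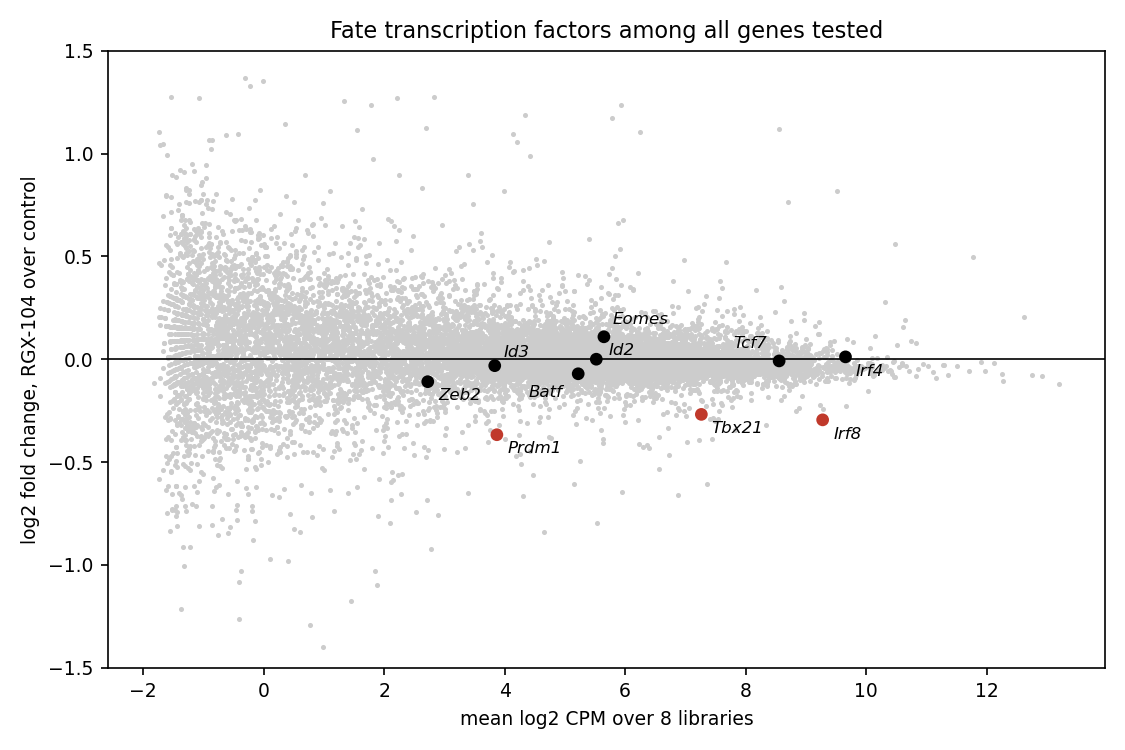
Log2 fold change (RGX-104 over control, vertical axis) against mean log2 CPM over the 8 libraries (horizontal axis) for the 13290 genes tested, with the 10 factors marked (red, unpaired edgeR adjusted p under 0.05; black, not). Tbx21, Prdm1 and Irf8 lie below 0, the others near it, and 12 genes lie beyond the vertical axis.

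Tbx21 encodes T-bet, the T-box factor that drives interferon gamma production and effector fate. The gene lies on chromosome 11 from 97098007 to 97115331 (GRCm38). It was at 146, 134, 135 and 143 CPM in RGX-104 libraries 1 to 4, against 172, 158, 166 and 175 CPM in control libraries 1 to 4. The highest RGX-104 library stayed below the lowest control library. CPM are counts scaled to the size of each library. On average Tbx21 was at 139 ± 5.77 CPM with RGX-104 and 168 ± 7.66 CPM in controls (SD, n = 4 each), a log2 change of -0.27 ± 0.03 (SE; edgeR adjusted p = 6.11e-06). RGX-104 libraries 1 and 4 were the higher RGX-104 libraries for Tbx21, and the same held for Ifng, the gene of interferon gamma (89.0 and 88.3 CPM, beside 64.2 and 64.0 CPM in libraries 2 and 3). Eomes, Irf4, Irf8 and Prdm1 had this order too, Zeb2 the opposite, and Id2, Id3, Tcf7 and Batf neither. For Prdm1 the margin was small, 12.88 CPM in RGX-104 library 1 and 12.84 CPM in RGX-104 library 3. RGX-104 libraries 1 and 4, and 2 and 3, were also the closest RGX-104 pairs over all tested genes. The share of all genes with this order was not counted. Ifng averaged 76.4 CPM with RGX-104 and 33.8 CPM in controls, so between the groups it rose while Tbx21 fell. A link between Tbx21 and Ifng was not tested.

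CD8 T cell identity genes changed less than Tbx21 and in both directions. Of 6 tested, Cd8a, Cd8b1 and Cd3e fell, and Cd3d and Cd3g did not pass (edgeR adjusted p = 0.879 and 0.728). Lck, which has a further row for a scaffold copy, rose, a call lost in 11 of 16 unpaired alternatives. Cd2, also with a scaffold copy, had at most 6 counts in any library. The 7 such genes in the table summed to 2053 to 2111 CPM in RGX-104 libraries and 2165 to 2285 CPM in control libraries. Cd8a fell by 7.73% and Cd3e fell by 9.33%. The part of this shift in the change of Tbx21, Prdm1 or Irf8 was not tested.

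For Eomes, the other T-box factor of CD8 T cells, the call depended on whether libraries were paired. The gene lies on chromosome 9 from 118478186 to 118486132 and overlaps the gene Gm33408, whose reads cannot be told apart without the strand setting. Its values were 55.9, 46.7, 51.2 and 54.5 CPM in RGX-104 libraries 1 to 4, against 49.2, 45.9, 46.4 and 51.3 CPM in control libraries 1 to 4. The groups overlapped, and the log2 change of 0.11 ± 0.05 (SE) did not pass in the unpaired fit (edgeR adjusted p = 0.214, unadjusted p = 0.0455). With a replicate block that pairs libraries by column number, Eomes rose by 0.11 ± 0.03 on the log2 scale (SE; edgeR adjusted p = 0.0212), and it was higher with RGX-104 in 4 of 4 pairs. The 95% interval of the change in the unpaired fit ran from 0.170% to 16.2%. Without RGX-104 replicate 2, the lowest of its group, the log2 change was 0.16 with an adjusted p of 0.0263, whereas the adjusted p over the 15 other unpaired alternatives was 0.0958 to 0.656.

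The balance of the T-box factors differed between the groups. Tbx21 counts per Eomes count were 2.61, 2.87, 2.64 and 2.62 in RGX-104 libraries 1 to 4, against 3.50, 3.44, 3.58 and 3.41 in control libraries 1 to 4. The highest RGX-104 ratio stayed below the lowest control ratio. A ratio within a library does not depend on how libraries are scaled, and the mean log2 ratio changed by -0.38. The ratio was set up with the fall of Tbx21 already known, so it is given with no test.

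Prdm1 encodes Blimp-1, a repressor that promotes terminal effector differentiation. The gene lies on chromosome 10 from 44437174 to 44528558. It was at 12.9, 11.9, 12.8 and 13.1 CPM in RGX-104 libraries 1 to 4, against 14.5, 16.6, 16.7 and 17.7 CPM in control libraries 1 to 4. The groups did not overlap, and control library 1 was the control nearest to the RGX-104 libraries. Prdm1 averaged 12.7 ± 0.521 CPM with RGX-104 and 16.3 ± 1.36 CPM in controls (SD, n = 4 each), a log2 change of -0.37 ± 0.06 (SE; edgeR adjusted p = 2.08e-04). Its counts were 398 to 657 per library, far fewer than those of Tbx21 (4362 to 6493) or Irf8 (17507 to 25707), and its standard error was the largest of the 3.

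Zeb2, a zinc-finger repressor that acts downstream of T-bet in terminal effector cells, was the lowest of the 10 factors, with 182 to 271 counts per library. It lies on chromosome 2 from 44983512 to 45117442 and overlaps Zeb2os and Mir5129. Zeb2 was at 5.89, 6.17, 7.18 and 5.94 CPM in RGX-104 libraries 1 to 4, against 6.77, 6.90, 6.18 and 7.30 CPM in control libraries 1 to 4. The groups overlapped, and the 95% interval of the change, -18.0% to 4.82%, still holds a fall as large as that of Tbx21 (log2 change -0.11 ± 0.09, SE; edgeR adjusted p = 0.489).

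**Figure D2:**
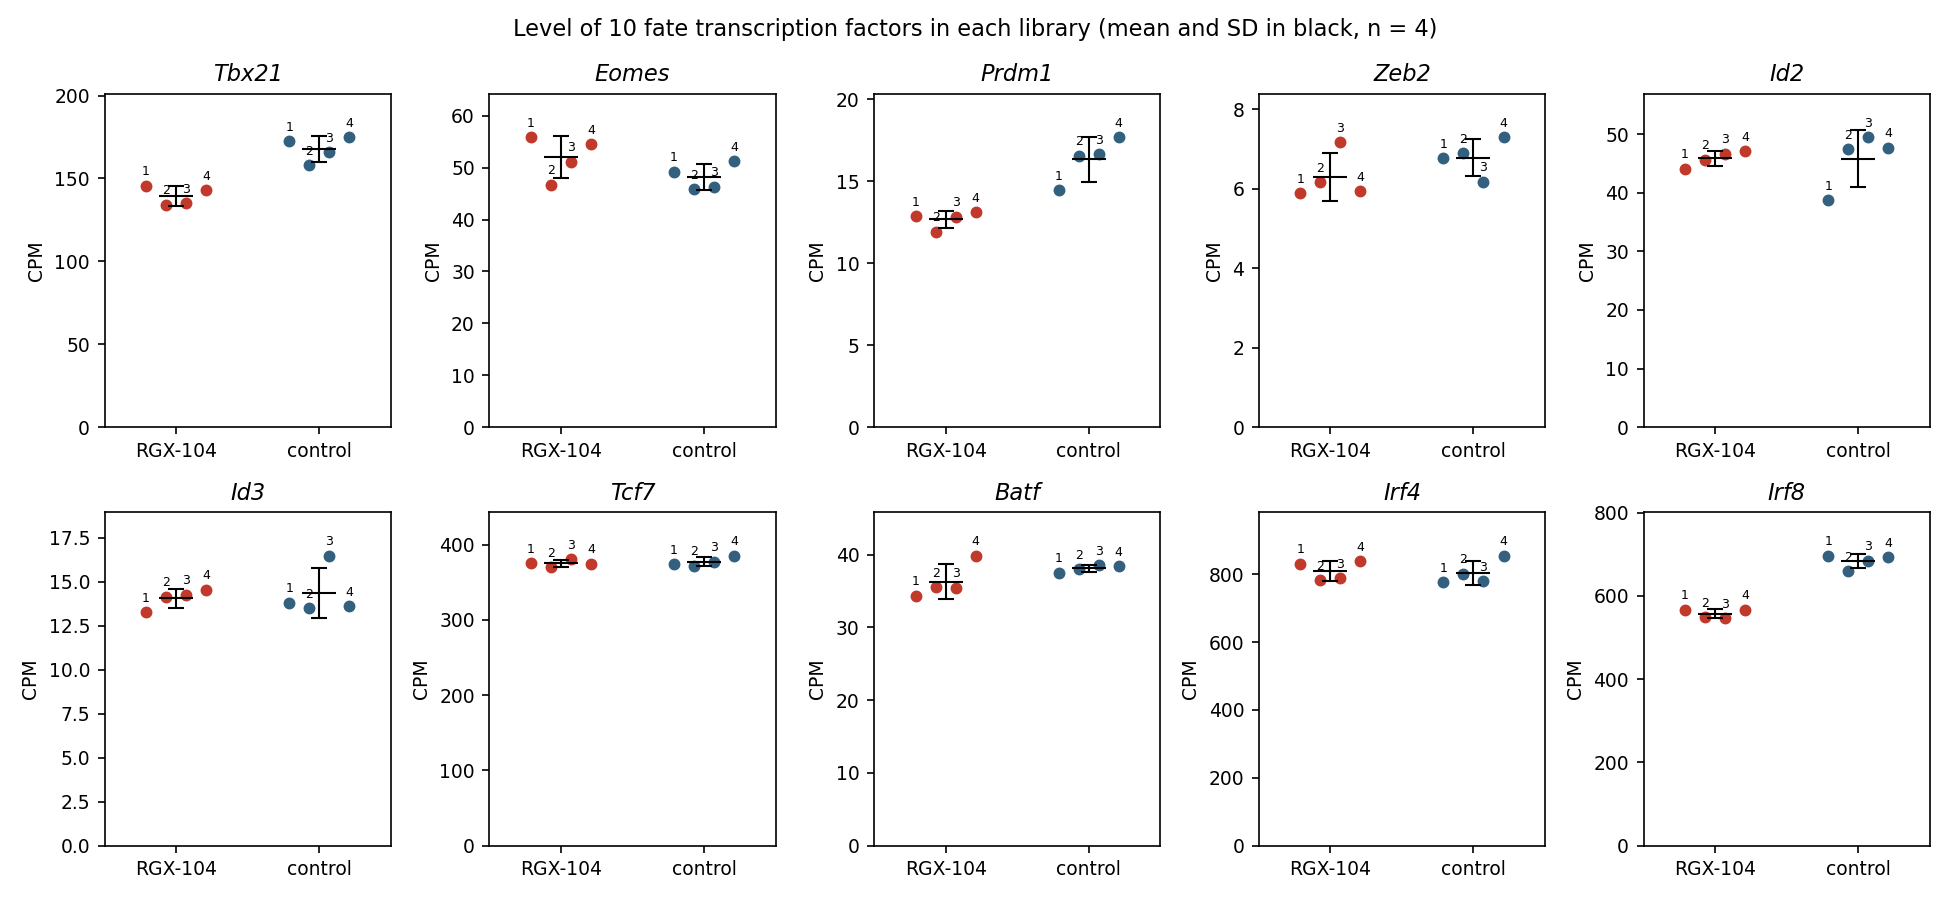
CPM of each of the 10 factors (vertical axes, from 0) in the RGX-104 (red) and control (blue) libraries, with library numbers beside the points and mean and SD in black (n = 4). For Tbx21, Prdm1 and Irf8 the 4 RGX-104 libraries lie below the 4 control libraries, and for the other 7 genes the groups overlap.

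Id2 and Id3 encode inhibitors that bind E proteins and keep them off DNA, Id2 in effector and Id3 in memory precursor cells. Id2 (chromosome 12, 25093799 to 25096092) was at 44.1, 45.6, 46.6 and 47.1 CPM in RGX-104 libraries 1 to 4, against 38.7, 47.4, 49.5 and 47.7 CPM in control libraries 1 to 4. Control library 1 was the lowest of all 8, and the RGX-104 libraries lay within the control range. Id3 (chromosome 4, 136143822 to 136145392) was at 13.3, 14.1, 14.3 and 14.5 CPM in RGX-104 libraries, against 13.8, 13.5, 16.5 and 13.6 CPM in control libraries. Control library 3 stood above the rest. Neither gene passed (edgeR adjusted p = 0.998 for Id2 and 0.8286 for Id3), with 95% intervals of -9.06% to 10.02% for Id2 and -10.7% to 7.26% for Id3. Id2 counts per Id3 count averaged 3.26 ± 0.0451 with RGX-104 and 3.20 ± 0.359 in controls (SD, n = 4 each), and these ratios overlapped.

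Of the 4 tested E protein and Id genes, 1 fell. Tcf3, which encodes the E protein E2A, fell by 8.32% (237 ± 2.66 CPM with RGX-104 and 259 ± 5.39 CPM in controls, SD, n = 4 each; edgeR adjusted p = 0.00264). None rose, and Tcf12, Tcf4 and Id1 did not pass. With the replicate block Tcf12 fell too (adjusted p = 0.0156), which made 2 of 4.

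Tcf7 encodes TCF-1, which marks naive, memory and stem-like T cells. It lies on chromosome 11 from 52246527 to 52283383 and overlaps Skp1. Tcf7 was at 375, 370, 381 and 374 CPM in RGX-104 libraries 1 to 4, against 374, 372, 377 and 386 CPM in control libraries 1 to 4. The groups overlapped, and the values were even, with an SD of 1.18% of the mean in RGX-104 libraries and 1.61% in control libraries. The 95% interval of the change, -4.12% to 3.16%, was the narrowest of the 10 on the log2 scale (edgeR adjusted p = 0.896). Prdm1 counts per Tcf7 count averaged 0.0339 ± 0.00119 with RGX-104 and 0.0433 ± 0.00320 in controls (SD, n = 4 each), with every RGX-104 ratio below every control ratio. This ratio too was set up with the fall of Prdm1 known.

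Irf8 encodes an interferon regulatory factor that is induced by interferon gamma and antigen, and that dendritic cells and B cells also express. The gene lies on chromosome 8 from 120736358 to 120756694. It was at 567, 549, 546 and 567 CPM in RGX-104 libraries 1 to 4, against 697, 659, 684 and 693 CPM in control libraries 1 to 4. The gap between the groups was wider than the whole range within either. Irf8 averaged 557 ± 11.1 CPM with RGX-104 and 683 ± 16.8 CPM in controls (SD, n = 4 each), a log2 change of -0.29 ± 0.03 (SE; edgeR adjusted p = 1.02e-08).

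The 13 dendritic cell markers in the table summed to 96.5 to 102 CPM in RGX-104 libraries and 83.9 to 89.3 CPM in control libraries, and of 7 tested, Ccl22 and Cd74 rose and 0 fell. With the replicate block Zbtb46 and Fscn1 rose too (edgeR adjusted p = 0.0224 and 0.0106), which made 4 of 7. Zbtb46 overlaps other genes, among them Zgpat and Lime1, whose reads cannot be told apart without the strand setting. Cst3, the most abundant, was at 48.8 CPM with RGX-104 and 48.1 CPM in controls and did not pass. Cst3 and Cd74 made up most of the dendritic cell marker sum. Cd74 was at 33.2 CPM with RGX-104 and 26.5 CPM in controls, and Ccl22 at 4.83 and 2.05 CPM. Among markers of low level, Zbtb46, a dendritic cell transcription factor, had at most 133 counts in an RGX-104 library and 116 in a control library, Itgax at most 34 and 27, and Flt3 at most 17 and 15. Xcr1 had at most 7 counts and Clec9a at most 1 in any library, and H2-Aa and H2-Ab1 had 0 but have a further row for a scaffold copy, so they are not read as absent. B cell markers summed to 4.46 to 4.89 CPM in RGX-104 libraries and 4.01 to 5.54 CPM in control libraries, with Ms4a1 at 0 in every library. Most of this sum was Cd79b, at 4.24 CPM with RGX-104 and 4.26 CPM in controls. The 8 macrophage markers summed to 4.70 to 5.81 CPM in RGX-104 libraries and 5.04 to 6.59 CPM in control libraries, with Lyz2 at most 5 counts. Cd68 made up most of it, at 4.77 CPM with RGX-104 and 5.08 CPM in controls. The part of these markers in the change of Irf8 was not tested. NK cell markers summed to 2.32 to 2.63 CPM in RGX-104 libraries and 2.43 to 2.84 CPM in control libraries, with Ncr1 at 0. Markers of CD4 and regulatory T cells summed to 45.6 to 48.4 CPM in RGX-104 libraries and 47.0 to 48.03 CPM in control libraries. Most of this sum was Ctla4, a gene with a scaffold copy, at 35.0 CPM with RGX-104 and 36.1 CPM in controls, which did not pass. Foxp3 had at most 6 counts in any library, and Cd4 at most 14. Of 2 NK markers tested Klri2, a gene with a scaffold copy, rose, and with the replicate block Gzmm fell (edgeR adjusted p = 0.0318). Of 3 CD4 and regulatory T cell markers Cd40lg rose and Zbtb7b fell. Klri2 lost its call in 10 of 16 unpaired alternatives and Zbtb7b in 9 of 16.

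Irf4, which encodes the paralog that rises in proportion to T cell receptor signal strength, did not follow Irf8. It lies on chromosome 13 from 30749233 to 30766981 and was at 831, 782, 789 and 839 CPM in RGX-104 libraries 1 to 4, against 776, 802, 781 and 855 CPM in control libraries 1 to 4. The groups overlapped (log2 change 0.01 ± 0.03, SE; edgeR adjusted p = 0.869; 95% interval -3.62% to 5.47%). Irf4 counts per Irf8 count were 1.47, 1.42, 1.44 and 1.48 in RGX-104 libraries, against 1.11, 1.22, 1.14 and 1.23 in control libraries. Every RGX-104 ratio lay above every control ratio, and this ratio was set up with the fall of Irf8 known.

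Batf, which encodes the AP-1 partner of IRF4, lies on chromosome 12 from 85686720 to 85709087. It was at 34.3, 35.5, 35.5 and 39.9 CPM in RGX-104 libraries 1 to 4, against 37.5, 38, 38.5 and 38.4 CPM in control libraries 1 to 4. RGX-104 libraries 1 to 3 lay below all controls and RGX-104 library 4 above them (log2 change -0.07 ± 0.04, SE; edgeR adjusted p = 0.352; 95% interval -10.4% to 1.24%).

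**Figure D3:**
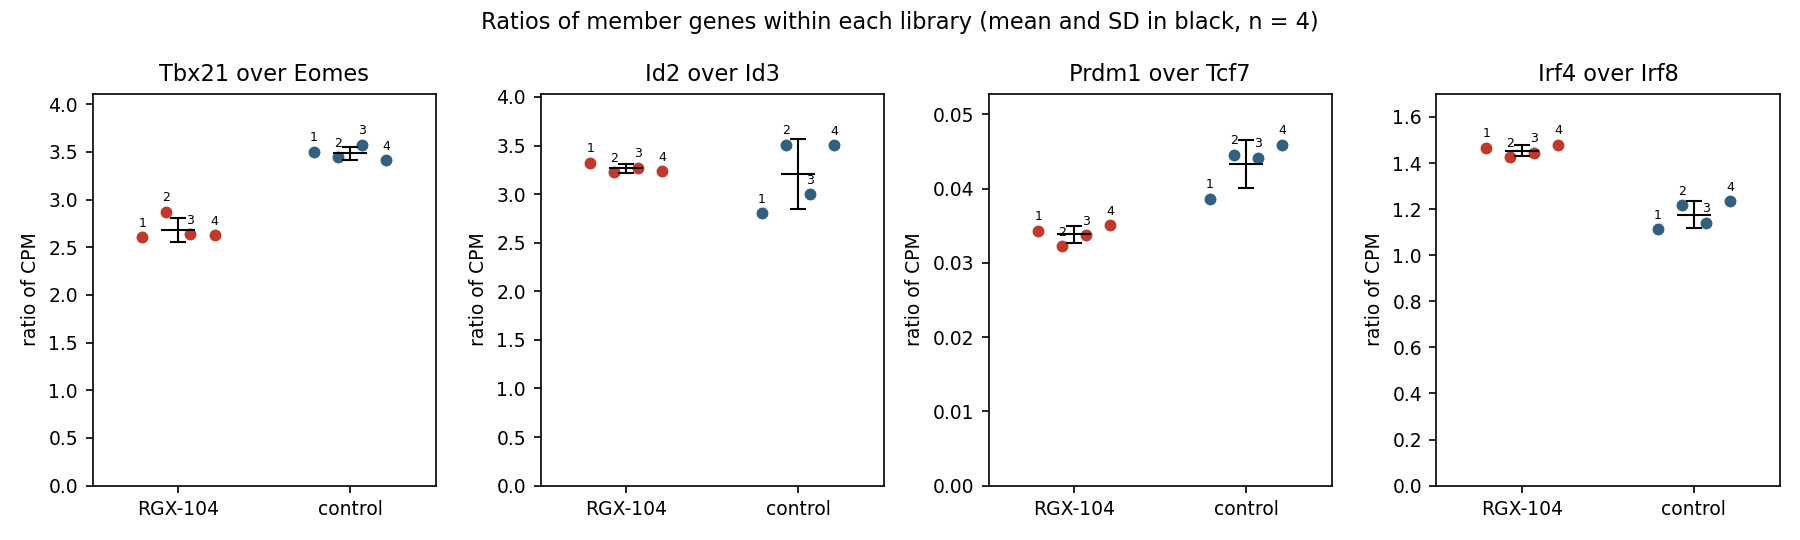
Ratios of CPM of 2 factors within each library (vertical axes, from 0), RGX-104 in red and control in blue, with library numbers beside the points and mean and SD in black (n = 4). Tbx21 over Eomes and Prdm1 over Tcf7 are lower in every RGX-104 library, Irf4 over Irf8 is higher in every RGX-104 library, and Id2 over Id3 overlaps.

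**Figure D4:**
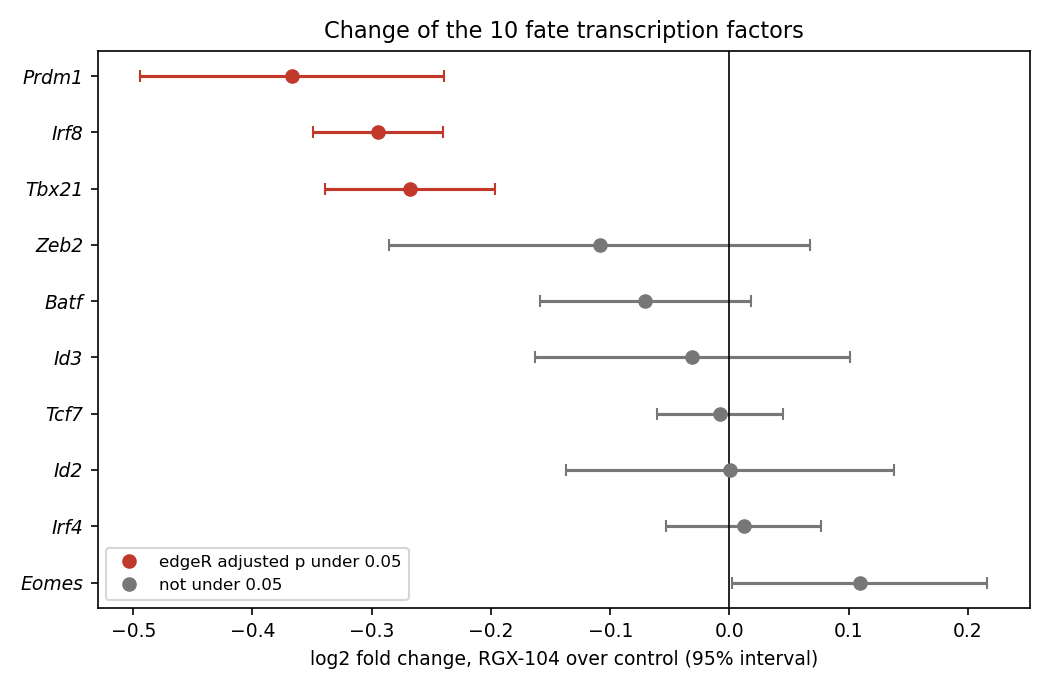
Log2 fold change of each factor (horizontal axis, RGX-104 over control) with its 95% interval from the unpaired edgeR fit, in red where the adjusted p was under 0.05. Prdm1, Irf8 and Tbx21 lie between -0.37 and -0.27, and the intervals of the others reach or nearly reach 0.

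Levels differed far more between the factors than between the groups. Per kilobase of all annotated exons, Irf4 was at 165 ± 5.89 RPKM with RGX-104 and 164 ± 7.42 RPKM in controls (SD, n = 4 each), followed by Tcf7 at 143 and 144 RPKM, Irf8 at 79.0 and 96.9 RPKM and Tbx21 at 56.0 and 67.4 RPKM in RGX-104 and control libraries. Then came Batf at 25.8 and 27.1 RPKM, Id2 at 18.8 and 18.8 RPKM, Eomes at 12.5 and 11.6 RPKM and Id3 at 7.85 and 8.02 RPKM. Prdm1 at 2.28 and 2.93 RPKM and Zeb2 at 0.316 and 0.340 RPKM were the lowest. No neighbours in this order overlapped in either group. The order depends on the length used: per kilobase of the longest coding transcript, Irf8 came first at 196 RPKM with RGX-104 and 240 RPKM in controls, and Id3 overlapped Eomes in controls.

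Promoter sequences are shown for the 3 factors that fell, and for Irf4 and Irf1 beside Irf8. They are the 250 bases before a RefSeq start site (GRCm38.p6), 5′ to 3′ on the gene's strand. Capitals mark matches to the gamma-activated sequence (GAS, TTCNNNGAA), letters known from promoters that interferon gamma induces, searched on both strands. Matches to the interferon-stimulated response element (ISRE) were searched too and found in none of the 5. For Prdm1 the window is that of 1 start site inside the annotated gene, which extends farther upstream.
Tbx21 (chr11:97115332-97115581, minus strand): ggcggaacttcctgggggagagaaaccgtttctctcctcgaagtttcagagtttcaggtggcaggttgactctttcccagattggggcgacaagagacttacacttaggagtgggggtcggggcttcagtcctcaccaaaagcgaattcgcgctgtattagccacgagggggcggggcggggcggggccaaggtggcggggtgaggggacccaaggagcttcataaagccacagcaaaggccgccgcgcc
Prdm1 (chr10:44458749-44458998, minus strand): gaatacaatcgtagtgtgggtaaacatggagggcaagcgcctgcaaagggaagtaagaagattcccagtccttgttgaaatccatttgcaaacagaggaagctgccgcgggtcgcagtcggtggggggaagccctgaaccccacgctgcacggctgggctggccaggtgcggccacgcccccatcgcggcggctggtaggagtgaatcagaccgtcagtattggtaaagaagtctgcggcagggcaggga
Irf8 (chr8:120736108-120736357, plus strand): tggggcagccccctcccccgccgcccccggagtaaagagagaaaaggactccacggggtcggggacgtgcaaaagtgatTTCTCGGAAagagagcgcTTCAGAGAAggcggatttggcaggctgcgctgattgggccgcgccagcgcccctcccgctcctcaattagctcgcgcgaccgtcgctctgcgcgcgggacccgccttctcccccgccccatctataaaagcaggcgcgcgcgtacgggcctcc
Irf4 (chr13:30748983-30749232, plus strand): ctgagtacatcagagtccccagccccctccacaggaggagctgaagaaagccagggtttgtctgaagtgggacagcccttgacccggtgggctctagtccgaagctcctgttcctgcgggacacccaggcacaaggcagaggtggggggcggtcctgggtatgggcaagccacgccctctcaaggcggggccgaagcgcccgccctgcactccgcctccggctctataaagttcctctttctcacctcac
Irf1 (chr11:53769764-53770013, plus strand): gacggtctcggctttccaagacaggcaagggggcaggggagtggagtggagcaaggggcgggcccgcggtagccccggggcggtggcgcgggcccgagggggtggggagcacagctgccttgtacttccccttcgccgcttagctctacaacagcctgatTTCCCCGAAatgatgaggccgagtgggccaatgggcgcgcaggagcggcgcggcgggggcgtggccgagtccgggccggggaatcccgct

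The Irf8 promoter held 2 matches to GAS, at bases -171 to -163 and -153 to -145 from the start site, and the Irf1 promoter held 1, at bases -90 to -82. Tbx21, Prdm1 and Irf4 had none in these windows, nor did the second windows of Irf8 and Irf1. Zeb2, which was not called, also held a GAS match, in 2 of its 4 windows. Of all 32851 promoter windows of 300 bases in the table, 8.30% held a GAS match and 3.44% an ISRE match. Among the 13160 windows of tested genes these shares were 7.01% and 2.93%. A match describes letters and does not show binding. Whether GAS matches go with a fall was not tested.

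The genes with patterns most like Tbx21, Prdm1 and Irf8 across the 8 libraries were found by 1 measure. It was the root mean square difference of log2 CPM, each gene centred on its own mean. The search covered 9804 genes whose log2 CPM averaged 1 or more, with predicted gene models, clone-type names and scaffold copy rows left out. Irf1, a factor induced by interferon gamma, was closest to Irf8 (0.0279), followed by Tbx21 (0.0320) and Nefh (0.0341). Nefh overlaps Ap1b1, so its counts may hold reads of that gene. Irf8 was closest to Tbx21 (0.0320), followed by Bst2 (0.0337), an interferon-inducible surface protein gene, and Cth (0.0359), which encodes an enzyme of cysteine synthesis. Prdm1 had more distant neighbours, Asns (0.0625), Fam117a (0.0638) and Cebpb (0.0667), of which Asns encodes asparagine synthetase. Most of the likeness over 8 libraries in 2 groups comes from the shared difference between the groups.

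Of the 7 other interferon regulatory factor genes, Irf1 and Irf2 fell and 0 rose, with a median log2 change of -0.08. Irf1 was at 200 ± 3.18 CPM with RGX-104 and 254 ± 7.75 CPM in controls (SD, n = 4 each), a log2 change of -0.34 ± 0.03 (SE; edgeR adjusted p = 1.81e-09). Irf2 (-0.17 ± 0.05, SE; adjusted p = 0.0326) lost its call in 7 of 16 unpaired alternatives, among them those without RGX-104 replicate 1 or 4 (log2 change -0.12 and -0.15) and without control replicate 2, 3 or 4 (-0.17, -0.15 and -0.16). With 1 surrogate variable its log2 change was -0.0997 (adjusted p = 0.242).

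Of 10 genes of upstream cytokine signalling, 4 fell and 0 rose, with a median log2 change of -0.13. Over all tested genes, 4.13% were called lower and 4.82% higher in the unpaired fit. With the replicate block Il2ra and Il2rg, chains of the IL-2 receptor, rose (edgeR adjusted p = 0.00432 and 0.0369) and Il21r fell too (adjusted p = 0.0222), and in unpaired fits 2 rose without control replicate 4 and 1 with library totals or no filter. Il2rg and the kinase gene Tyk2 were higher in every RGX-104 library than in every control library, without passing the unpaired test (adjusted p = 0.0857 and 0.141). Il21r and Il12rb1, the latter with a scaffold copy, were lower in every RGX-104 library, also without passing the unpaired edgeR test (adjusted p = 0.0531 and 0.393). The 4 that fell were the interferon gamma receptor chains Ifngr1 (70.6 ± 1.82 CPM with RGX-104 and 94.2 ± 1.33 CPM in controls) and Ifngr2 (11.5 ± 0.630 and 14.2 ± 1.30 CPM in RGX-104 and control libraries), the kinase Jak2 (115 ± 3.34 and 137 ± 3.80 CPM) and the IL-15 receptor chain Il15ra (52.7 ± 1.98 and 59.9 ± 2.62 CPM; SD, n = 4 each). In each of these 4 the groups did not overlap.

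Of 12 other effector factors tested, 5 fell and 1 rose, with a median log2 change of -0.09. Over all tested genes, 4.13% were called lower and 4.82% higher. Gfi1, a zinc-finger repressor, averaged 112 ± 4.12 CPM with RGX-104 and 148 ± 3.86 CPM in controls (SD, n = 4 each), a log2 change of -0.40 ± 0.03 (SE; edgeR adjusted p = 5.67e-10). Myc, a driver of growth after activation, changed by -0.24 ± 0.04 (log2, SE). Stat4, the transducer of IL-12 that induces T-bet, changed by -0.18 ± 0.03 (log2, SE). Hif1a also fell and Rbpj, the DNA-binding partner of Notch, rose by 10.2%; these 2 lie outside the 4 largest changes and were named after their values were seen. Hif1a (adjusted p = 0.00718) was no longer called when RGX-104 libraries 1 and 4, and 2 and 3, were each summed, or with 1 surrogate variable. Bhlhe40, Nfil3, Zbtb32, Stat5a and Stat5b did not pass. Runx3 had 6 to 10 counts per library and has a row for a scaffold copy, so its expression was not assessed.

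Factors of naive and memory cells were mostly uncalled, as Tcf7 was. Of 12 tested, 2 fell and 0 rose, with a median log2 change of -0.03. Klf2, which maintains lymph node homing, was at 3.88 ± 0.228 CPM with RGX-104 and 5.72 ± 0.520 CPM in controls (SD, n = 4 each), a log2 change of -0.56 ± 0.10 (SE; edgeR adjusted p = 2.29e-04). Myb fell by 8.16% at an adjusted p of 0.0499 and lost its call in 11 of 16 unpaired alternatives. Lef1, the partner of TCF-1, was at 103 CPM with RGX-104 and 101 CPM in controls, and Bach2, a repressor of effector genes, at 163 and 160 CPM in RGX-104 and control libraries (edgeR adjusted p = 0.745 and 0.570). Of the 5 TCF-1 cofactor genes tested, Tle1 rose by 13.6% (adjusted p = 0.0214), a call lost in 7 of 16 unpaired alternatives, and 0 fell, with a median log2 change of -0.0071. With the replicate block Tle3 fell (adjusted p = 0.0165).

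Among AP-1 genes, which encode the JUN proteins that pair with BATF, the FOS proteins that compete with it for them, and BATF relatives, 2 of 7 tested fell and 0 rose, with a median log2 change of -0.04. Jun averaged 42.8 ± 1.22 CPM with RGX-104 and 54.3 ± 1.498 CPM in controls (SD, n = 4 each), a log2 change of -0.34 ± 0.04 (SE; edgeR adjusted p = 1.76e-07). Fos, at 3.52 and 4.41 CPM in RGX-104 and control libraries, had an adjusted p of 0.0327 and lost its call in 8 of 16 unpaired alternatives. Junb and Batf3, another BATF family member, did not pass. Among 8 tested factors of dysfunction and residency, the orphan receptor gene Nr4a1, an early target of T cell receptor signals, rose by 17.7%, Nfatc1 fell by 9.04%, and Tox did not pass (edgeR adjusted p = 1.29e-05, 0.00165 and 0.345), with a median log2 change of -0.01.

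Effector genes that T-bet, Eomes, Blimp-1 or Zeb2 are known to control moved in both directions. Of 14 tested, 8 rose and 2 fell, with a median log2 change of 0.24, and with the replicate block Ccl4 rose too (edgeR adjusted p = 0.0175). Over all tested genes, 4.82% were called higher and 4.13% lower in the unpaired fit. This list was chosen with earlier results of these data known. Ifng averaged 76.4 ± 14.2 CPM with RGX-104 and 33.8 ± 3.62 CPM in controls (SD, n = 4 each), a log2 change of 1.17 ± 0.16 (SE; edgeR adjusted p = 0.00632). Il18r1, an IL-18 receptor chain, changed by 0.90 ± 0.10 and the chemokine gene Ccl3, which overlaps Ccl4, by 0.43 ± 0.08 (log2, SE). Gzma, a granzyme gene that overlaps Cdc20b, averaged 4.21 ± 1.02 CPM with RGX-104 and 7.07 ± 1.101 CPM in controls. Its call was lost without RGX-104 replicate 3 or 4 or control replicate 2, 3 or 4 (log2 change -0.79 to -0.67). Others were named after their values were seen. Il12rb2, an IL-12 receptor chain whose gene overlaps Serbp1, was at 418 CPM with RGX-104 and 498 CPM in controls and fell (adjusted p = 5.96e-07). Il2rb, the IL-2 and IL-15 receptor chain that T-bet and Eomes induce, rose by 21.4%. Klrk1 and Il18rap rose too, and stayed called in 8 and 13 of 16 unpaired alternatives. Klrg1, Cx3cr1 and S1pr5, which mark terminal effector cells, had at most 2, 7 and 7 counts in any library and were not tested.

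Of 11 genes linked to memory and naive cells, 3 rose and 1 fell, with a median log2 change of 0.03. Cxcr5, the receptor gene for entry into B cell follicles, rose by 24.4% and Dapl1 by 15.7% (edgeR adjusted p = 0.00312 and 0.00412). Cxcr5 overlaps Bcl9l, so its counts are uncertain. Ccr7 fell by 6.95%, a call lost without RGX-104 replicate 1 or control replicate 3 (log2 change -0.09 and -0.10) and in 2 further unpaired alternatives. Il7r, Cd27 and Bcl2 did not pass, and with the replicate block S1pr1 rose too (adjusted p = 0.0449).

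**Figure D5:**
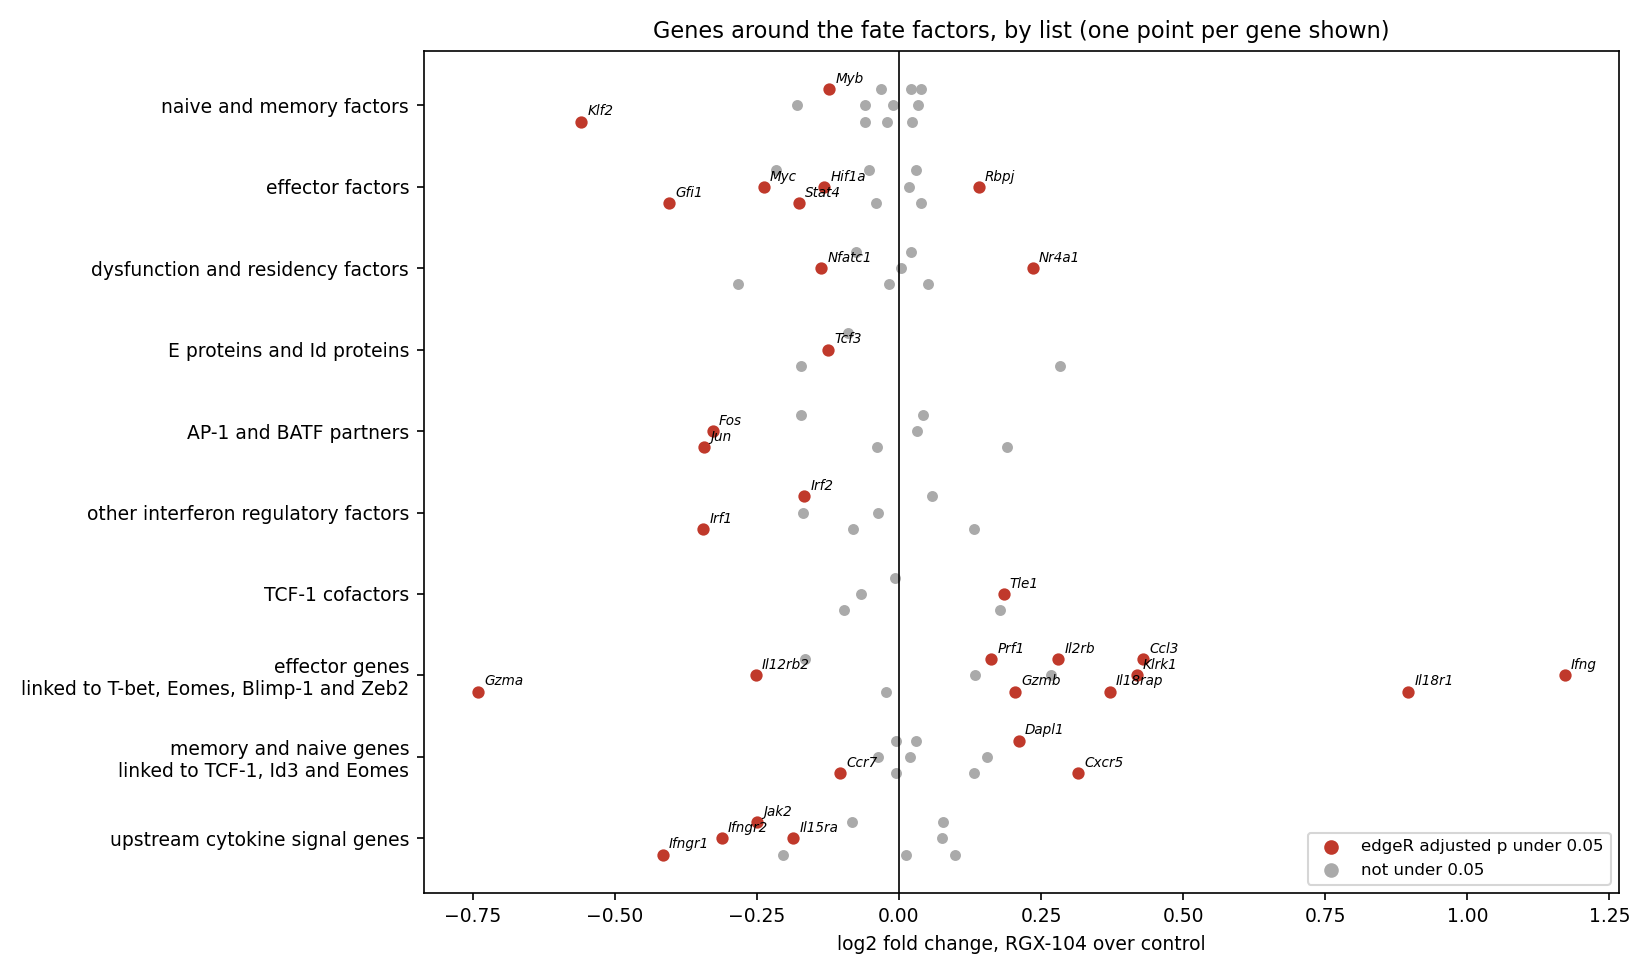
Log2 fold change (RGX-104 over control, horizontal axis) of the tested genes reported from the 10 lists around the factors, in red and named where the adjusted p of the unpaired edgeR fit was under 0.05. Called genes of the cytokine signal and effector factor lists lie mostly below 0 and called effector genes mostly above 0.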

How the data were processed

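The deposited table holds raw counts, whole numbers without scaling. The submitters' processing notes list STAR 2.7.5, cutadapt 2.10, DESeq2 1.4 and R 4.1.0 and the build GRCm38. How reads were counted, on which annotation and strand, is not given in the sources used here, so counts of overlapping genes are uncertain. Per the labels, libraries were Illumina TruSeq. Every value column was used.

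Genes were kept by filterByExpr (minimum count 10, minimum total 15) and tested with edgeR 4.0.16 in R 4.3.3: robust quasi-likelihood F-test with treatment alone in the model and TMM (trimmed mean of M values) scaling. SEs come from the F statistic and 95% intervals from the fit's degrees of freedom. RPKM used exon lengths from GENCODE M21, coordinates and promoters RefSeq GRCm38.p6. The columns of both groups are numbered 1 to 4. The labels number the RGX-104 samples on from the controls and state no pairing. Over 10393 genes the deviations of same-numbered libraries from their group means correlated at 0.12 to 0.37, against -0.27 to 0.11 for other pairs. For RGX-104 library 3 the margin was small, 0.116 with control library 3 and 0.111 with control library 2. The numbers were taken to pair libraries from the column names and these correlations alone, so the pairing is an inference from these data. A fit with that replicate block was therefore added after seeing the data, and its values stand beside results whose call it changes. Ratios were described, not tested. The code was tested on simulated data.

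Named were all 10 factors, up to 4 called genes per list with the largest changes, and the 3 nearest genes of Tbx21, Prdm1 and Irf8. The factors and gene lists were chosen with earlier results of these data known. Alternatives were DESeq2 1.42.0, limma-voom (limma 3.58.1), other scalings and filters, 1 surrogate variable (sva 3.50.0), leaving out each library, and summing close RGX-104 libraries. Some list genes that enter the counts are not reported here by name.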

Additional observations from a re-analysis of the deposited data

Results flagged for a closer look

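In 200 groups of 4 libraries (100 genes of the factors and their lists), 5 held a library far from the other 3, where chance flags about 10. Among the 10 factors there was 1 such group: Id3 was at 16.5 CPM in control library 3, against 13.5 to 13.8 CPM in the other control libraries, and without control replicate 3 its log2 change was 0.04 (adjusted p = 0.758) in place of -0.03. Tcf3 was at 233 CPM in RGX-104 library 1, against 238 to 239 CPM in the other RGX-104 libraries. Gzma was at 2.69 CPM in RGX-104 library 1, against 4.61 to 4.84 CPM in the others. Cxcr5 was at 11.2 CPM in RGX-104 library 4, against 13.2 to 13.3 CPM in the others. Prf1, the perforin gene, was at 52.1 CPM in control library 3, against 49.4 to 49.8 CPM in the other control libraries.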

How the results depend on the processing

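Tbx21, Prdm1 and Irf8 were called lower in all 16 unpaired alternatives and with the replicate block. In the unpaired alternatives their log2 changes were -0.30 to -0.25, -0.42 to -0.33 and -0.31 to -0.28 and their adjusted p at most 1.86e-04, 0.00379 and 4.08e-06. The count of factors called higher was 0 to 1 without each library, the 1 being Eomes without RGX-104 replicate 2, and 1, again Eomes, with the replicate block. Over all genes, 640 were higher and 549 lower. With the replicate block 1109 were higher and 906 lower, and all 1189 genes called in the unpaired fit were called. With 1 surrogate variable 380 were higher and 294 lower, and with RGX-104 libraries 1 and 4, and 2 and 3, each summed, 358 and 264, where fewer samples enter. The cause of the lower counts with the surrogate variable was not tested. Without each library in turn 462 to 719 were higher and 377 to 621 lower. Library totals in place of TMM scaling gave 686 higher and 451 lower. Changes near 0 switched sign. Id2 changed by -0.0019 with DESeq2, -0.015 with limma-voom, -0.0061 with no filter and -0.0016 with the summed libraries, Id3 by 0.023 with 1 surrogate variable and Tcf7 by 0.0031 with library totals only. Without each library the log2 changes ran from -0.072 to 0.039 for Id2, -0.058 to 0.043 for Id3, -0.016 to 0.0033 for Tcf7 and -0.0048 to 0.044 for Irf4, and the log2 ratios from -0.41 to -0.36 for Tbx21 over Eomes, -0.41 to -0.32 for Prdm1 over Tcf7, 0.28 to 0.33 for Irf4 over Irf8 and -0.03 to 0.08 for Id2 over Id3. Of 46 called genes of the lists, the factors and marker lists included, 32 stayed called in all 16 unpaired alternatives and 46 with the replicate block, which added 11 calls, each named with its list, and changed no other call there. Depth limits Zeb2, Id3 and Prdm1 most, with at most 271, 598 and 657 counts per library. Levels per longest coding transcript, chosen like the replicate block after seeing the data, are given with the levels.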

Other observations

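Further promoter windows of the factors held motif letters. The Eomes window held 1 ISRE match, GAAAATGAAA, at bases -154 to -145. A Zeb2 window held 2 matches to AP-1 (TGANTCA), and the window of Prdm1, which fell, held 1, at bases -48 to -42. Of all windows 7.81% hold such a match, and of windows of tested genes 5.09%. Zeb2 windows 2 and 3, which overlap, held the same GAS match, TTCTGTGAA. The T-box letters AGGTGTGA and the LXR element (DR4) matched in 0 of the 15 windows of the 10 factors, where 1.28% and 0.0152% of all windows hold them. Among the 13160 windows of tested genes, 0.942% held the T-box letters and 0 held the DR4 letters. Their absence here therefore says nothing about LXR sites near the factors.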
